A study of Mus musculus with 4 samples.

Results

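The genes that make, move and degrade serotonin were followed in adult mouse prelimbic cortex after exposure to fluoxetine before birth. The set held 9 genes chosen by their known role, with earlier results of these data known. They were the synthesis genes Tph1, Tph2 and Ddc, the transporter genes Slc6a4, Slc18a2, Slc22a3 and Slc29a4, and the monoamine oxidase genes Maoa and Maob. All probe sets annotated to exactly 1 of these symbols were taken and kept separate, which gave 11 probe sets for 8 of the 9 genes, out of 34945 probe sets with 1 symbol. Slc22a3, the gene of organic cation transporter 3, had no such probe set in the annotation used and was not analysed here. Ddc, Maoa and Slc29a4 had 2 probe sets each.

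The RNA was taken from punched medial prefrontal cortex of males at postnatal day 90 and hybridised to Affymetrix 3' expression arrays. Of the 4 arrays, 2 were from mice exposed prenatally to fluoxetine, a selective serotonin reuptake inhibitor, and 2 were from untreated control mice. The strain, the dose and days of exposure, the route and any vehicle given to the controls are not given in the sources used here, nor is the number of mice behind an array or their litters. The submitters describe the 2 arrays of a group as biological duplicates. The limma p-values rest on the spread of these 4 arrays, with each probe set's variance drawn towards that of probe sets of similar brightness.

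Serotonin is made from tryptophan by a tryptophan hydroxylase, which needs tetrahydrobiopterin, and then by aromatic amino acid decarboxylase. It is packed into vesicles, released, taken back up by the serotonin transporter or by low-affinity carriers, and broken down by monoamine oxidases on the outer mitochondrial membrane. In the adult brain the cell bodies that make serotonin lie in the raphe nuclei of the brainstem and send axons to the cortex, so that most transcripts of Tph2 and Slc6a4 are found in the raphe and not in the cortical tissue the axons reach. Monoamine oxidases, in contrast, are made by many cells of the cortex itself.

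None of the 11 probe sets passed the test for a difference between fluoxetine and untreated arrays, in either direction, at an adjusted p below 0.05 or at an unadjusted p below 0.05 (limma, two-sided). Over all 34945 probe sets, 1 passed after Benjamini-Hochberg adjustment (0.00286%), a probe set of the synaptic scaffold gene Homer1 named after its value was seen, and 9.45% passed unadjusted, with 6.4% higher and 3.04% lower with fluoxetine. That split was 2237 higher and 1064 lower, and 2746 and 705 after subtracting array medians. The 11 differences ran from −0.36 to 0.36 on the log2 scale, with a median of 0.02, against a median of −0.0065 over all probe sets. Their adjusted p-values lay between 0.573 and 0.982 in limma. The fluoxetine pair stood wholly above the untreated pair for 4 probe sets and wholly below it for 2, and the groups overlapped for 5. Over all probe sets, 39.9% did not overlap, 19.9% with fluoxetine above and 20% below. An exact two-sided permutation test of 2 arrays against 2 cannot give a p below 0.333, which is the value for each of these non-overlapping probe sets.

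The arrays themselves were close: Pearson correlations over all probe sets were 0.997 for the fluoxetine pair, 0.996 for the untreated pair and 0.996 to 0.997 for pairs across treatments. Marker genes of cell types were each read at their brightest probe set. Of 10 markers of cortical excitatory neurons, 9 had a probe set, all 9 above the level called dim here. Only 3 of 13 measured striatal markers and 0 of 11 myelin markers were dim. These levels therefore do not tell the labelled tissue from its neighbours. Cortical excitatory markers had sums of 11391 and 11025 on the fluoxetine arrays, against 10304 and 10804 on the untreated arrays. Of these 9 genes, 3 stood higher on both fluoxetine arrays and 0 lower. Among all probe sets above the dim level, 26.5% stood higher and 15.8% lower. Striatal markers were highest in untreated replicate 2 for all 13 measured genes, with summed linear intensities of 7166 and 8852 on the fluoxetine arrays, against 7626 and 15524 on the untreated arrays. Myelin markers were highest in that array for 10 of 11 genes, with sums of 47154 and 47209 with fluoxetine, against 46449 and 52561 without. Ttr, the transthyretin gene that defines choroid plexus, stood at 11.71 in fluoxetine replicate 1 and 8.09 in fluoxetine replicate 2, against 6.67 and 8.97 in untreated arrays (probe set 1454608_x_at), while 7 of the 9 choroid plexus and ependymal markers were dim; the list's sums were 3679 and 588 with fluoxetine, against 432 and 817 without. The 24 poly-A control probe sets were all higher with fluoxetine, by a median of 0.24. Results are therefore also given without untreated replicate 2 or fluoxetine replicate 1 where these arrays move them, and the part of these markers in the differences was not tested. Without fluoxetine replicate 1, 1044 of the 34945 probe sets passed at an unadjusted p below 0.05, compared with 3301 for all 4 arrays. In punched tissue, fewer cells of a type and less RNA per cell cannot be told apart.

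The brightness of the probe sets split the members into 2 classes. As a yardstick, 147 probe sets of olfactory, vomeronasal and taste receptor, hair keratin-associated and beta-defensin genes, which cortex is not expected to use, had a median of 3.65 and a 95th percentile of 6.62. A probe set whose 4-array mean lay at or under 6.62 is called dim, which applied to 43.7% of all named probe sets. By this measure 6 of the 11 members were dim and 5 were not. The brighter 5 belonged to Ddc, Maoa (both probe sets), Maob and Slc29a4. Signal of different probe sets depends on their own binding, so the classes say how well each reading stands clear of background and do not rank the genes by transcript amount.

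**Figure D1:**
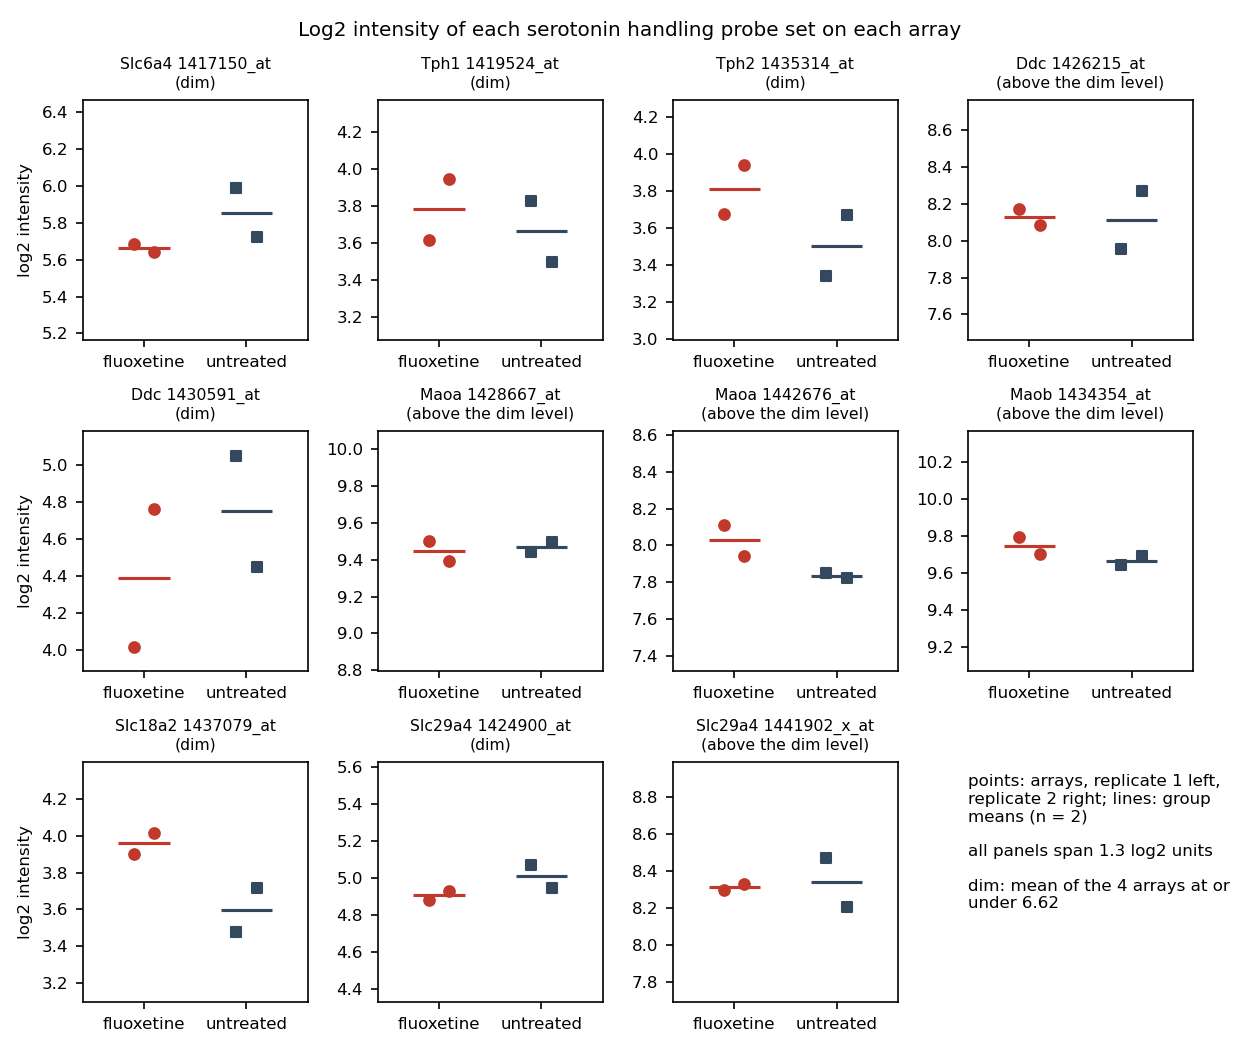
Log2 intensity (vertical axis, every panel spanning 1.3 units) of each of the 11 probe sets on the 2 fluoxetine arrays (circles, left) and the 2 untreated arrays (squares, right), with group means as lines. The groups separate, without passing the test, for Slc6a4, Tph2, Slc18a2, Maob, 1 probe set of Maoa and 1 of Slc29a4, and overlap for the other 5.

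Synthesis began with Tph2, the tryptophan hydroxylase of raphe neurons. Probe set 1435314_at read 3.68 and 3.94 on the fluoxetine arrays, against 3.34 and 3.67 on the untreated arrays. The fluoxetine arrays were the higher ones by a small margin: the lower fluoxetine array and the higher untreated array stood at 3.676 and 3.669. The log2 difference was 0.31 (SE 0.19, n = 2 and 2, limma adjusted p = 0.663), with a 95% interval from −0.15 to 0.76. All 4 readings were dim, near the median of the yardstick genes. Leaving out 1 array at a time gave differences from 0.14 to 0.47.

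Tph1, the hydroxylase of the pineal gland and of gut enterochromaffin cells, read 3.62 and 3.95 with fluoxetine, against 3.83 and 3.50 without (1419524_at). The groups overlapped, and the arrays of each group lay 0.33 apart. The difference of 0.12 (SE 0.20, limma adjusted p = 0.894) turned to −0.05 without fluoxetine replicate 2 and without untreated replicate 2. Its 95% interval ran from −0.35 to 0.59. Neither hydroxylase gave a signal clear of the dim range.

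Ddc encodes aromatic amino acid decarboxylase, which makes serotonin from 5-hydroxytryptophan and also dopamine from L-DOPA. Its 2 probe sets gave different pictures. The bright one, 1426215_at, read 8.17 and 8.09 with fluoxetine, against 7.95 and 8.27 without. Both fluoxetine arrays lay between the 2 untreated arrays, and the difference was 0.02 (SE 0.12, limma adjusted p = 0.982), or −0.0016 after quantile normalization. Its interval from −0.25 to 0.29 corresponds to 0.838-fold to 1.23-fold. The spread came from the untreated side: the difference was −0.14 without untreated replicate 1 and 0.18 without untreated replicate 2, the array with the high striatal and myelin markers, whose part was not tested.

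The other Ddc probe set, 1430591_at, was dim and read 4.02 and 4.76 with fluoxetine, against 5.05 and 4.45 without. It was the noisiest of the 11, with 1.03 log2 units between its lowest and highest array. The groups overlapped, and the difference was −0.36 (SE 0.29, limma adjusted p = 0.743). It was 0.01 without fluoxetine replicate 1 and −0.73 without fluoxetine replicate 2, where alone the unadjusted limma p fell below 0.05, at 0.0478. The 2 probe sets were 3.55 units apart in level on average, a gap of 4.15 and 3.32 on the fluoxetine arrays, against 2.90 and 3.82 on the untreated arrays. They thus did not follow each other from array to array.

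Reuptake was represented by Slc6a4, the plasma membrane serotonin transporter and the target that fluoxetine blocks. Its single probe set, 1417150_at, read 5.68 and 5.64 on the fluoxetine arrays, against 5.99 and 5.72 on the untreated arrays. The fluoxetine arrays agreed closely, and both lay below the untreated ones. Most of the gap came from untreated replicate 1: the nearest arrays of the groups were 5.68 and 5.72. The log2 difference was −0.19 (SE 0.14, limma adjusted p = 0.716), with an interval from −0.53 to 0.15, or 0.691-fold to 1.11-fold. It was −0.06 without untreated replicate 1 and −0.33 without untreated replicate 2. The probe set was the brightest of the dim class, at the percentile 32.4 of all named probe sets.

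Slc18a2, the vesicular monoamine transporter 2 that loads serotonin, dopamine and noradrenaline into vesicles, had the largest positive difference of the 11. Probe set 1437079_at read 3.90 and 4.02 with fluoxetine, against 3.48 and 3.71 without. Each fluoxetine array exceeded each untreated one, all 4 in the dim range. The difference was 0.36 (SE 0.17, 1.28-fold, 95% interval 0.970-fold to 1.70-fold, limma adjusted p = 0.573), and from 0.24 to 0.48 with each array left out. Its sign could not change in those fits, because the groups do not overlap. The unadjusted p of 0.0727 fell below 0.05 in 4 other limma fits, at 0.0289 without the intensity trend, 0.0499 after quantile normalization, 0.0489 after subtracting array medians and 0.0484 with 1 mean value per gene. The first and last of these keep the difference of 0.36 and change only the variance estimate. It stayed above 0.05 in limma fits of all probe sets (0.0774) and of the brightest probe set per gene (0.0698). No adjusted p passed in any of these.

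Slc29a4 encodes the plasma membrane monoamine transporter, a low-affinity carrier that takes up serotonin and dopamine and is also abundant in choroid plexus. The brighter probe set, 1441902_x_at, read 8.30 and 8.33 with fluoxetine, against 8.47 and 8.20 without. The suffix marks probes that may also bind other transcripts. The untreated arrays lay on either side of the fluoxetine ones, with a difference of −0.02 (SE 0.10, limma adjusted p = 0.970), or 0.01 after subtracting array medians. The difference was 0.11 without untreated replicate 1 and −0.16 without untreated replicate 2.

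The dim Slc29a4 probe set, 1424900_at, read 4.88 and 4.93 with fluoxetine, against 5.07 and 4.95 without. The fluoxetine arrays were both lower, with the nearest readings 0.01 apart at 4.93 and 4.95. Its difference was −0.10 (SE 0.15, limma adjusted p = 0.867). It was −0.04 without untreated replicate 1 and −0.17 without untreated replicate 2. The part of choroid plexus RNA in the signal of either probe set was not tested.

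Breakdown was read by probe sets that were all above the dim level. Maoa, the monoamine oxidase that prefers serotonin and noradrenaline, had 2 of them. Probe set 1428667_at read 9.50 and 9.39 with fluoxetine, against 9.44 and 9.50 without. The groups overlapped within 0.11 log2 units, the narrowest range of the 11 over the 4 arrays. The difference was −0.02 (SE 0.07, limma adjusted p = 0.949), or 0.01 after subtracting array medians, and its interval ran from 0.880-fold to 1.10-fold.

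The other Maoa probe set, 1442676_at, read 8.11 and 7.95 with fluoxetine, against 7.85 and 7.82 without. Here both fluoxetine arrays were higher, and fluoxetine replicate 1 the highest. The difference was 0.19 (SE 0.09, 1.14-fold, 95% interval 0.983-fold to 1.33-fold). The unadjusted limma p was 0.0744 and the adjusted p 0.577, and the difference was 0.11 without fluoxetine replicate 1. The probe sets therefore differed by 0.22 in what they gave for the same gene. The mean of both, in a fit of 18193 genes, gave 0.08 (SE 0.07, limma adjusted p = 0.746).

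Maob, the oxidase of astrocytes and of serotonin neurons themselves, which prefers phenylethylamine, read 9.79 and 9.70 with fluoxetine, against 9.64 and 9.69 without (1434354_at). Both fluoxetine arrays were above the untreated ones, the nearest pair at 9.70 and 9.69. The difference was 0.08 (SE 0.06, limma adjusted p = 0.729) and its interval 0.954-fold to 1.17-fold, the tightest half-width of the 11 at 0.15 log2 units. With each array left out the difference ranged from 0.04 to 0.13. Its sign could not change in those fits, because the groups do not overlap. Markers of astrocytes, where Maob is made, had sums of 49410 and 50428 on the fluoxetine arrays, against 47826 and 47577 on the untreated arrays. At their brightest probe sets, 6 of the 11 astrocyte genes were higher on each fluoxetine array than on either untreated one, and 0 had the opposite order. Over all 35 astrocyte probe sets, 6 of them dim, 19 stood above and 2 below. Among all probe sets 19.9% stood above and 20% below, and among those above the dim level 26.5% and 15.8%. The part of these markers in the Maob difference was not tested.

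**Figure D2:**
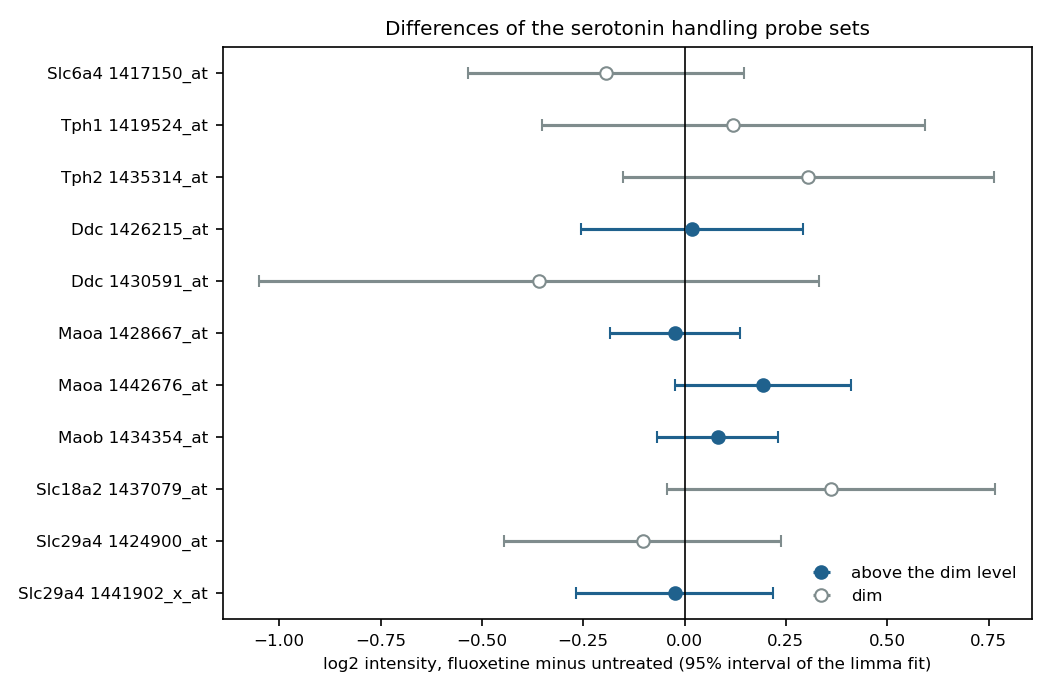
Log2 difference of each probe set (horizontal axis, fluoxetine minus untreated, n = 2 and 2) with its 95% interval from the limma fit; filled points lie above the dim level and open points are dim. Every interval includes 0, and those of the 5 brighter probe sets are the narrower ones.

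The precision differed between the classes. For the 5 brighter probe sets the half-width of the 95% interval was 0.15 to 0.27 log2 units, and no interval reached below 0.831-fold or above 1.33-fold. For the 6 dim ones it was 0.34 to 0.69, and the intervals together spanned 0.483-fold to 1.70-fold. The median size of difference was 0.02 in the brighter class and 0.25 in the dim class, against 0.07 and 0.14 over all probe sets of the same classes. Among all probe sets above the dim level, 26.5% had both fluoxetine arrays above and 15.8% both below; among the 5 brighter members these counts were 2 and 0.

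**Figure D3:**
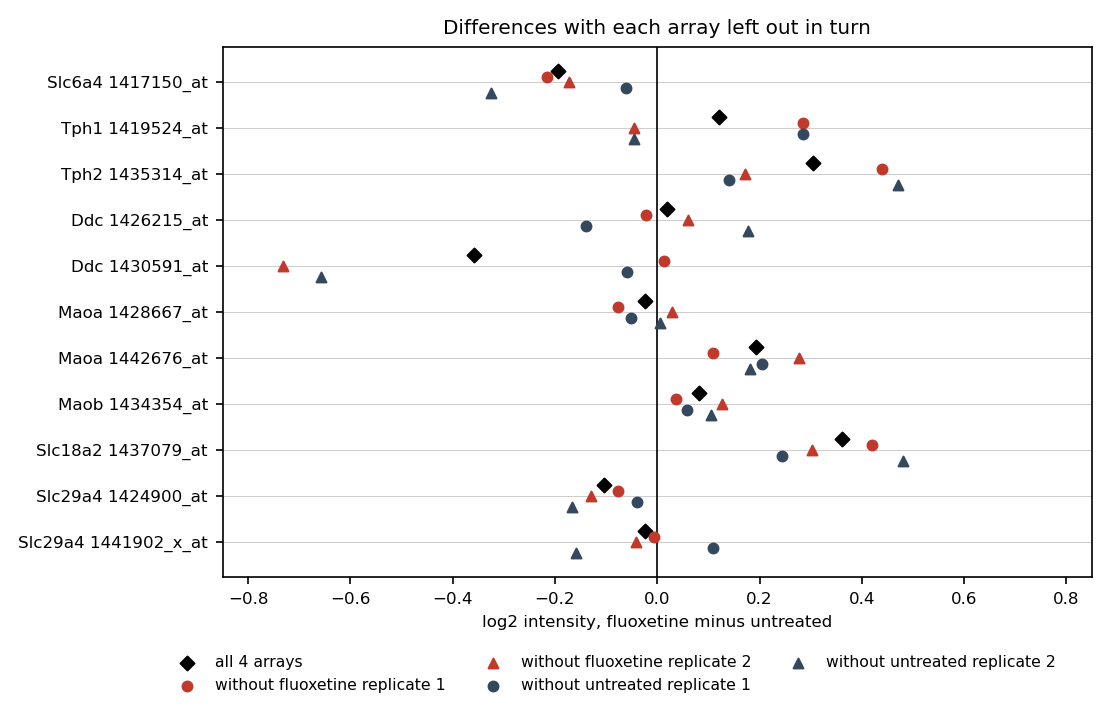
Log2 difference (horizontal axis, fluoxetine minus untreated) of each probe set with all 4 arrays (diamonds) and with each array left out in turn (circles and triangles). Slc6a4, Tph2, Slc18a2, Maob, Maoa 1442676_at and Slc29a4 1424900_at keep their sign throughout, and the others cross 0. For the probe sets named here the sign could not change, because their groups do not overlap, so it is no separate sign of stability.

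Markers of raphe cell bodies were mostly dim. Of 9 genes that identify raphe serotonin neurons, 7 had a probe set and 6 were dim, among them Lmx1b and Gata3, transcription factors of that lineage, with Slc6a4 and Tph2 themselves in the list. The exception was Gata2, which other cells use too, at 8.10 and 8.15 with fluoxetine, against 8.20 and 8.13 without. The list's summed intensity was 527 and 525 with fluoxetine, against 540 and 525 without. For platelets, which carry Slc6a4 protein, and mast cells, 6 of 9 markers were dim, and the sums were 1172 and 1224 with fluoxetine, against 1334 and 1235 without.

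Tetrahydrobiopterin, the cofactor of the hydroxylases, is made by the products of Gch1, Pts and Spr and recycled by that of Qdpr. In this list 1 of 10 probe sets passed at an unadjusted p below 0.05 (limma; 6.4% of all probe sets were higher and 3.04% lower at this level), and 0 passed after adjustment. That one was Gch1, the GTP cyclohydrolase of the first step, which read 5.32 and 5.49 with fluoxetine, against 5.14 and 4.87 without (1429692_s_at, difference 0.40, SE 0.16). The reading was dim, the call was lost in 3 of the 4 fits that left out an array, and the other Gch1 probe set differed by 0.19 (SE 0.17) with overlapping groups. Pts differed by 0.03 at its brighter probe set, or −0.0015 after quantile normalization. Spr differed by −0.04. Qdpr, the brightest of the list, differed by −0.02 and −0.07 at its 2 probe sets, the first being 0.02 after subtracting array medians.

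Other lists covered the supply of tryptophan, its other route of breakdown and the enzymes that act after the oxidases. Of 10 probe sets for tryptophan carriers such as Slc7a5 and Slc3a2, the subunits of the large neutral amino acid transporter, 0 passed at an unadjusted p below 0.05, and their median difference was −0.0065. Over all probe sets, 6.4% were higher and 3.04% lower at an unadjusted limma p below 0.05, with 377 and 694 among the 15262 dim ones. In the kynurenine route, the main catabolic path of tryptophan, 0 of 21 probe sets were higher and 1 was lower, and 19 were dim. The lower one was Aadat, a kynurenine aminotransferase, at 5.13 and 5.37 with fluoxetine, against 5.94 and 5.50 without (difference −0.46, SE 0.19), and this call was lost in 3 of the 4 fits that left out an array. Among the aldehyde-handling and conjugating enzymes, 0 of 20 were higher and 1 lower. This was a dim probe set of Aldh7a1, an aldehyde dehydrogenase best known for lysine breakdown, with a difference of −0.62 (SE 0.16), a call kept in all 4 such fits, while its bright probe set 1460167_at differed by −0.05 (SE 0.06). Aldh2, the mitochondrial enzyme that clears the aldehyde made by the oxidases, read 9.85 and 9.89 with fluoxetine, against 9.69 and 9.88 without, at its brightest probe set 1448143_at; it was named after its values were seen.

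Among 11 probe sets of other amine transporters, 2 passed upward and 0 downward before adjustment (limma, unadjusted p below 0.05), and 9 were dim. Over all probe sets, 6.4% passed upward and 3.04% downward, with 377 and 694 among the 15262 dim ones. Slc47a1, a proton-coupled exporter of organic cations found in meninges as well as in kidney and liver, read 6.49 and 6.27 with fluoxetine, against 5.49 and 5.83 without (difference 0.73, SE 0.16). The probe set was dim. Its difference was 0.62 without fluoxetine replicate 1 and 0.90 without untreated replicate 2, and at lowest 0.56 with an array left out. Meningeal fibroblast markers had sums of 23539 and 24416 with fluoxetine, against 20796 and 23336 without. Of these 11 genes, 2 of them dim, 4 stood higher on both fluoxetine arrays and 2 lower at their brightest probe sets. Among all probe sets 19.9% stood higher and 20% lower, and among those above the dim level 26.5% and 15.8%. The part of these markers in the Slc47a1 difference was not tested. Slc18a1, the vesicular transporter of endocrine cells, differed by 0.52 (SE 0.19) at 1446248_at, lost without fluoxetine replicate 2 or untreated replicate 2, and by 0.07 and −0.03 at its other probe sets, all 3 dim.

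Proteins that bind or regulate the serotonin transporter or the hydroxylases gave 6 higher and 2 lower of 40 probe sets at an unadjusted p below 0.05, beside 6.4% higher and 3.04% lower over all probe sets. Ywhaz, a 14-3-3 adaptor of a family that binds phosphorylated tryptophan hydroxylase, had 7 of the 40 probe sets and supplied 4 of the 6 calls, with differences from 0.12 to 0.43. Its other 3 probe sets, all above the dim level, differed by 0.07, 0.04 and 0.02, and without fluoxetine replicate 1 the 4 called differences were 0.10 to 0.18, with the 0.43 of 1436981_a_at at 0.13. The other 2 calls were Ywhae (0.30, SE 0.10 at 1435702_s_at), a further 14-3-3 gene, and Itgb1 (0.17, SE 0.07 at 1452545_a_at), an integrin subunit. Itgb1 differed by 0.13 at 1426918_at, also above the dim level, and by −0.29 to −0.05 at its dim probe sets. The Ywhae difference was 0.14 without fluoxetine replicate 1, and its other 3 probe sets differed by 0.07, 0.03 and −0.03. Nos1, the gene of the neuronal nitric oxide synthase that binds the transporter's tail, was lower at 1438483_at (−0.24, SE 0.10). So was a dim probe set of Itgb3 (−0.28, SE 0.12), the integrin beta 3 gene, named beyond the fixed rule after its values were seen. Nos1 also differed by −0.28 at 1422949_at and −0.21 at 1458626_at, both dim, and by −0.12 at 1429887_at with overlapping groups. Itgb3 differed by −0.18 at its other probe set, also dim. These further probe sets did not pass at an unadjusted limma p below 0.05. None of the 40 passed after adjustment. The 6 higher calls were lost without the intensity trend and in at least 2 of the 4 fits that left out an array, and those of Nos1 and Itgb3 were each lost in 3 of these 4. The serotonin receptors had 1 higher and 1 lower of 22 probe sets, 14 of them dim. The higher was a dim probe set of Htr1f (0.72, SE 0.18), whose other probe set differed by 0.28 (SE 0.15). The lower was a dim one of Htr1d, 1422290_at (−0.36, SE 0.13). Htr1d also differed by −0.65 (SE 0.43) with overlapping groups at 1440166_x_at, and by 0.005 at 1440741_at. The Htr1f call held in all 4 fits that left out an array, and that of Htr1d was lost in 3 of them.

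**Figure D4:**
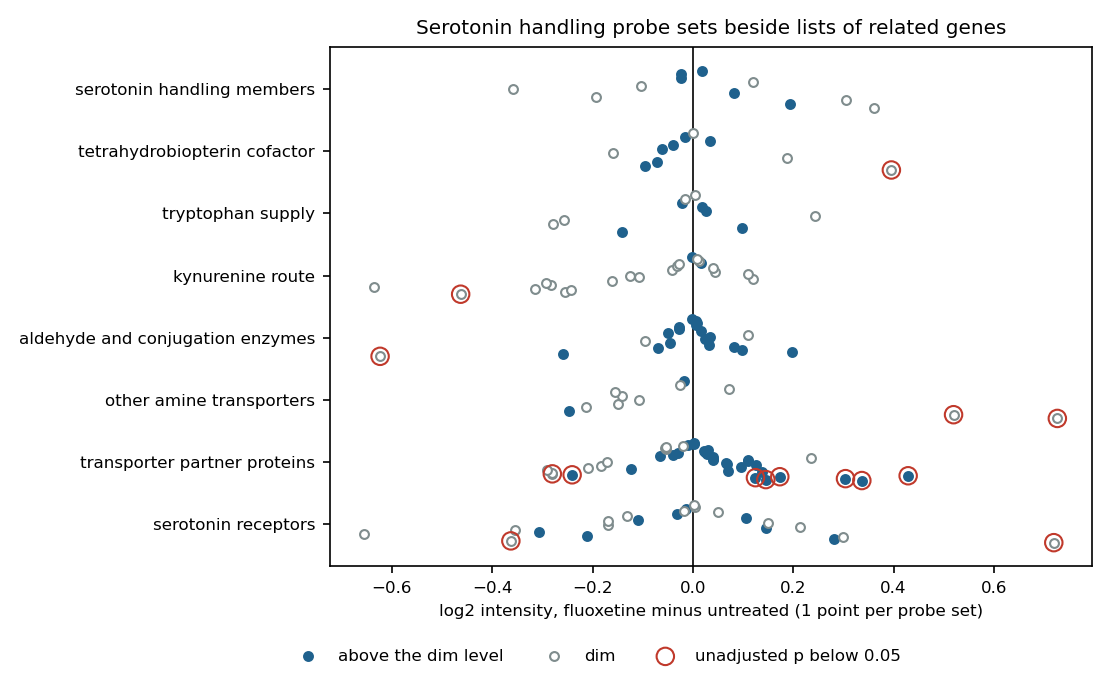
Log2 difference (horizontal axis, fluoxetine minus untreated) of every probe set of the serotonin handling genes and of 7 lists of related genes (rows); open points are dim, and red rings mark an unadjusted limma p below 0.05. No ring falls on the serotonin handling row, and most rings below it fall on dim probe sets or on 14-3-3 genes.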

How the data were processed

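Each array's deposited column gives a log2 intensity for every probe set. The authors computed it with RMA (affy), and limma is listed too, per the submitters' processing notes; versions, the genome build and any other background correction are not stated there. The log2 base was read from the values (array medians 6.44 to 6.50), and the arrays' quartiles differed slightly. Probe sets were named from the platform annotation (34945 with 1 symbol, 932 with several, 9160 other than the 64 controls without a row); 34741 matched a RefSeq gene by Entrez number, and the table's genome positions were not used.

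Groups followed the treatment labels, and replicates were numbered in accession order. Fluoxetine was compared with untreated by limma 3.58.1 in R 4.3.3 (lmFit, eBayes with an intensity trend, two-sided, Benjamini-Hochberg over the 34945 probe sets, threshold 0.05, no filter), with 2 residual and 5.11 prior degrees of freedom. Intervals are the fit's 95% intervals. Background in every signal makes log2 differences of dim probe sets hard to read as transcript ratios. Alternatives were the fit without the trend, quantile normalization, array medians subtracted, only bright probe sets, all probe sets, 1 value per gene and each array left out.

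All probe sets of the 9 genes are described; of each related list, up to 4 genes with the smallest p among those at an unadjusted p below 0.05 with non-overlapping groups are named, with Gch1, Pts, Spr and Qdpr whatever their values. The members and lists were chosen with earlier results of these data known. The code was tested on simulated data, and the number of arrays limits the precision.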

Additional observations from a re-analysis of the deposited data

How the results depend on the processing

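No member probe set passed after adjustment under any of the 9 alternatives run, of which the one above the median level tested only the 5 brighter ones. The count of members higher at an unadjusted p below 0.05 was 1 instead of 0 without the trend, after quantile normalization and after subtracting array medians, each time Slc18a2, and the count lower was 1 (Ddc 1430591_at) without fluoxetine replicate 2, so that with an array left out it ranged from 0 to 1 and the count higher stayed at 0. Over all probe sets, the count past adjustment was 0 without the trend and 0 to 1 with an array left out. The unadjusted count of 3301 was 2047 among probe sets above the median level, where fewer were tested, and 1044 to 3466 with an array left out. In these fits 707 to 2326 were higher and 337 to 1594 lower. The lower count of 1064 was 705 after subtracting array medians and 301 above the median level. The split of the calls moved with the scaling and with the variance model: 2237 higher and 1064 lower became 2194 and 1502 after quantile normalization, 2746 and 705 after subtracting array medians and 1556 and 1535 without the trend, which leaves the differences as they are.

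Differences changed sign in 21 cases, none past an unadjusted p below 0.05 on either side, and the cause was not tested. After quantile normalization these were −0.0016 (Ddc 1426215_at) and −0.0015 (Pts 1450660_at), and after subtracting array medians 0.0124 (Maoa 1428667_at), 0.0119 (Slc29a4 1441902_x_at) and 0.0206 (Qdpr 1423664_at). With an array left out, the differences that crossed 0 ranged from −0.0450 to 0.286 (Tph1), −0.139 to 0.177 (Ddc 1426215_at), −0.731 to 0.0139 (Ddc 1430591_at), −0.0775 to 0.0298 (Maoa 1428667_at), −0.158 to 0.110 (Slc29a4 1441902_x_at), −0.0023 to 0.379 (Gch1 1420499_at), −0.0171 to 0.0841 (Pts 1450660_at), −0.0813 to 0.0499 and −0.144 to 0.0031 (Qdpr 1423664_at and 1437993_x_at) and −0.0819 to 0.0044 (Spr). With the mean of a gene's probe sets they were −0.170 (Ddc) and 0.0845 (Maoa), and Slc18a2 reached an unadjusted p of 0.0484 in that gene-level fit. For the named related genes these alternatives were added after seeing the data: of 127 values of the 15 probe sets with an unadjusted call, 44 lost it. A fit that leaves out an array rests on 1 array in a group, assumed to vary like the others. No paired analysis was possible because the labels give no replicate number shared between the groups.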
